A study of Zea mays with 9 samples.

Results

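Some transcripts of the maize primary root growth zone did not follow the severity of water deficit, and instead stood highest or lowest in the mildly stressed roots. These transcripts were collected by a fixed rule and are described here. RNA-seq had been performed on primary root tips (the last 1 cm) of dark-grown seedlings of the inbred line B73, kept for 26 h in vermiculite that was well-watered (-0.02 MPa, replicates 1, 2 and 3), under mild stress (-0.3 MPa, replicates 1, 3 and 4) or under severe stress (-1.6 MPa, replicates 1, 2 and 5). The water potential of the mild treatment is that of the sample labels, and the title of the series gives another value. Each of the 9 libraries came from 5 pooled roots, so that the differences between roots within a pool are not seen. Abundance is given as deposited CPM, the reads of a transcript scaled to the same total in every library. A transcript was called a peak if its mean over the 9 libraries was at least 1 CPM, its 3 mild stress replicates all lay above each of the other 6 libraries, and its mild stress mean was at least 1.5 times both other means. It was called a dip if the 3 mild stress replicates all lay below the other 6 and their mean was at most 0.67 times both other means. Of 46599 transcripts with a deposited CPM, 33201 had a mean of at least 1 CPM, and 362 of these met the rule (95 peaks and 267 dips). The 300 with the highest overall mean were kept, which left out every member with a mean below 1.42 CPM and gave 81 peaks from 79 genes and 219 dips from 213 genes. Because the mild stress values chose the members, the contrasts with mild stress describe the selection and carry no test here.

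The growth zone at the tip of the root holds the dividing cells of the meristem and the elongating cells behind it, and in maize its elongation is known to be less sensitive to drying than that of the leaves. Several classes named among the members have well described roles. Glutathione S-transferases (GSTs) conjugate glutathione to electrophilic compounds and to products of lipid oxidation. Lipoxygenases oxidize polyunsaturated fatty acids, allene oxide synthase turns lipoxygenase products towards jasmonates, and TIFY proteins include the JAZ repressors of jasmonate responses, whose own genes are induced by jasmonate in Arabidopsis. Pyruvate decarboxylase and alcohol dehydrogenase carry out ethanol fermentation and are known for their induction by low oxygen in maize roots. The files do not annotate most of the members. Of the 300 transcripts, 241 matched a gene in the RefSeq table (Zm-B73-REFERENCE-NAM-5.0) and 49 of them a gene with a name other than a locus number, and the remainder are described by their identifiers.

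The listed transcripts received 33385679 to 52047078 reads per library, and 3 reads, taken as the smallest detectable abundance, corresponded to 0.0576 to 0.0899 CPM. This floor covers counting error only. Unique reads, which were counted on a single transcript, were 48.1% to 48.7% of the reads of each library, and the other reads were shared between transcripts of a gene or between similar genes. Genes with symbols of dividing cells (histones, cyclins, replication factors) summed to 2785 to 3745 CPM per library and those of elongating cells (expansins) to 1051 to 1902 CPM, and the 2 genes with photosynthetic leaf symbols summed to 4.35 to 8.01 CPM. Symbols of differentiated vessels summed to 82.3 to 321 CPM, and 10 of their 11 transcripts averaging at least 1 CPM were higher under severe stress than in well-watered roots (FDR below 0.05), while 21 of 32 dividing cell transcripts were lower, against 16.4% called higher and 13.1% called lower over all transcripts tested. In these pooled tips, fewer cells of a type and less RNA per cell cannot be told apart. In the same comparison, 12 of 19 expansin transcripts averaging at least 1 CPM were called higher and 1 lower. The 2 root hair transcripts, both of 1 gene, were called lower. None of the vessel, root hair or dividing cell transcripts was a member, and the β-expansin expB6 was the member in the elongation list. Over all transcripts averaging at least 1 CPM, 0.286% were peaks and 0.804% dips, so nothing is read from the absence of members in lists this short.

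The mild treatment was the one that stood apart least often. Applied to the other treatments, the same rule found 349 transcripts above and 1176 below in well-watered roots, and 3871 above and 896 below under severe stress, against the 95 peaks (0.286% of transcripts averaging at least 1 CPM) and 267 dips (0.804%) under mild stress. Most members were of modest size and abundance. The overall mean of the peaks ranged from 1.45 to 738 CPM (median 4.51) and that of the dips from 1.42 to 388 CPM (median 5.17). Relative to the nearer of the other 2 treatment means, the mild stress mean was 1.51 to 3.29 times as high in peaks (median 1.73) and 0.107 to 0.669 times in dips (median 0.585). At least 2-fold peaks numbered 20, and dips to 0.5 or below numbered 57. Among the mild stress libraries, replicates 1, 3 and 4 were the highest of the 3 in 32, 30 and 19 peaks, and the lowest in 69, 75 and 75 dips. Just inside the limit were the peaks GRMZM2G180971_T01 (1.51 times) and GRMZM2G121663_T01 (1.51 times) and the dips GRMZM2G052344_T01 and GRMZM2G181551_T05 (0.669 times each). Just outside were GRMZM2G168428_T01 and GRMZM2G146206_T05 (1.49 times each) and GRMZM2G008305_T01 and GRMZM2G128644_T01 (0.671 times each).

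In edgeR's quasi-likelihood F-test, 24 of the 81 peaks were called higher under mild stress in both contrasts (mild stress against well-watered and mild against severe stress, each FDR below 0.05), and 70 of the 219 dips were called lower in both. Over all 46599 transcripts tested, 0.127% were called higher in both and 0.255% lower in both. Since these contrasts chose the members, the counts are a description. They became 40 peaks and 131 dips with DESeq2, and 5 peaks and 4 dips with the replicate number as a block. Numbers 4 and 5 belong to a single library each, so the block absorbs those libraries and they add nothing to the contrasts. How much of the fall came from that loss was not tested. The counts also varied with single libraries, from 12 to 25 peaks and from 28 to 76 dips with each library left out in turn. Without mild stress replicate 1, 12 peaks and 33 dips were called, and without mild stress replicate 3, 12 peaks and 28 dips. The number of dips called in both contrasts also fell to 29 without mild stress replicate 4 and to 39, 32 and 32 without well-watered replicates 1, 2 and 3.

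The comparison of severe stress with well-watered roots does not use the mild stress means, although all 9 libraries shared the estimate of spread. It asks whether members that turned around under mild stress also differed between the extremes. The answer divided the members. Of the 81 peaks, 14 were higher and 4 lower under severe stress (FDR below 0.05) and 63 were not called, and of the 219 dips, 36 were higher, 11 lower and 172 not called. Over all transcripts tested, 16.4% were called higher and 13.1% lower. The shares called higher were 17.3% of peaks and 16.4% of dips, and the shares called lower were 4.94% and 5.02%. The background also holds transcripts averaging below 1 CPM, which could not be members. No share called was computed for transcripts of like abundance, so nearness to the background is not read as a result. The rule placed the severe stress and well-watered means on the same side of the mild stress mean, which bears on these counts. The median log2 fold change was -0.11 for peaks, 0.07 for dips and 0.00 for all transcripts tested. In the single libraries, the 3 severe stress replicates all lay above the 3 well-watered ones in 15 peaks and all below in 8, and in 57 and 12 dips, against 29.4% above and 19.5% below among all transcripts averaging at least 1 CPM. The 47 calls among dips fell to 31 without well-watered replicate 3 and to 24 with the replicate number as a block. The block leaves severe stress replicate 5 without weight in this comparison, because no other library has its number.

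Severe stress replicate 2 stood apart from the other severe stress libraries in both sets. It was the highest of the 3 in 152 of the 219 dips (69.4%, against 42.7% of all transcripts averaging at least 1 CPM) and the lowest in 44 of the 81 peaks (54.3%, against 31.1%). The median ratio of the severe stress to the well-watered mean was 1.13 in dips and 1.06 without this library, and 1.000 and 1.03 in peaks. Without it the rule found 105 peaks and 250 dips.

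The most abundant peaks with unique reads were 4 transcripts of genes with no name in the files, and they shared a profile in which mild stress was highest, severe stress was intermediate and well-watered roots were lowest. GRMZM2G308463_T01 (chr2:231311211-231312095 in B73 RefGen_v3, 2 exons) was measured at 326, 351 and 289 CPM in the well-watered replicates, 1475, 1178 and 924 CPM under mild stress and 775, 538 and 785 CPM under severe stress. GRMZM2G124061_T01 (chr6:67056173-67058503, 4 exons) was measured at 15.7, 16.1 and 16.5 CPM in the well-watered replicates, 1118, 726 and 539 CPM under mild stress and 422, 300.1 and 403 CPM under severe stress. GRMZM2G161746_T01 (chr4:166273188-166275612, 4 exons) was measured at 80.7, 73.9 and 58.1 CPM in the well-watered replicates, 766, 545 and 484 CPM under mild stress and 199.6, 127 and 218 CPM under severe stress. In none of these did the 3 treatments overlap, and mild stress replicate 1 was the highest library of each. GRMZM2G066840_T01 (chr2:231529309-231530670, a single exon) showed the same order, with 153, 139.7 and 127 CPM in the well-watered replicates, 564, 410.0 and 378 CPM under mild stress and 299.7, 207 and 313 CPM under severe stress. Severe stress exceeded well-watered by a log2 fold change of 1.01 ± 0.20 (SE), FDR = 0.00422 for GRMZM2G308463_T01, of 4.44 ± 0.28 (SE), FDR = 1.06e-05 for GRMZM2G124061_T01, of 1.256 ± 0.24 (SE), FDR = 0.00377 for GRMZM2G161746_T01 and of 0.86 ± 0.19 (SE), FDR = 0.0087 for GRMZM2G066840_T01. These 4 calls held in each of the 16 alternatives.

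The other abundant peaks with mostly unique reads split into those whose severe stress replicates overlapped with the well-watered ones and those whose did not. GRMZM2G061305_T01 was of the first kind, with 50.3, 53.8 and 54.8 CPM in the well-watered replicates, 82.1, 100 and 82.6 CPM under mild stress and 48.0, 42.4 and 60.7 CPM under severe stress. GRMZM2G480439_T01 was alike, with 9.40, 8.001 and 9.41 CPM in the well-watered replicates, 22.1, 20.6 and 19.8 CPM under mild stress and 9.70, 8.42 and 11.96 CPM under severe stress. In both, well-watered and severe stress replicates overlapped, and the log2 fold change between them was -0.18 ± 0.13 (SE), FDR = 0.341, and 0.06 ± 0.14 (SE), FDR = 0.786. GRMZM2G170017_T01, of the second kind, was measured at 3.24, 2.49 and 2.77 CPM in the well-watered replicates, 21.8, 24.3 and 21.3 CPM under mild stress and 15.2, 7.16 and 20.2 CPM under severe stress, and GRMZM2G090043_T01 at 4.55, 4.20 and 4.42 CPM in the well-watered replicates, 16.9, 21.0 and 19.2 CPM under mild stress and 12.7, 10.4 and 14.8 CPM under severe stress. Their severe stress replicates all lay above the well-watered ones (log2 fold change 2.22 ± 0.33 (SE), FDR = 0.00091, and 1.42 ± 0.14 (SE), FDR = 0.00012), although severe stress replicate 5 of GRMZM2G170017_T01 came close to the mild stress replicates. Smaller differences in the same direction in GRMZM2G161696_T01 (0.45 ± 0.12 (SE), FDR = 0.0187) and GRMZM2G004060_T01 (0.63 ± 0.16 (SE), FDR = 0.0158) were each lost in several alternatives. GRMZM2G070242_T01 and GRMZM2G124815_T01 were not called between severe stress and well-watered (FDR = 0.137 and 0.162). In all, 11 of the 23 peaks with at least 50% unique reads were called higher and 1 lower under severe stress, against 16.4% and 13.1% of all transcripts tested. Those shares cover transcripts of any abundance and unique share, and none was computed for transcripts like these 23. Of all 81 peaks, 14 were called higher and 4 lower.

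**Figure D1:**
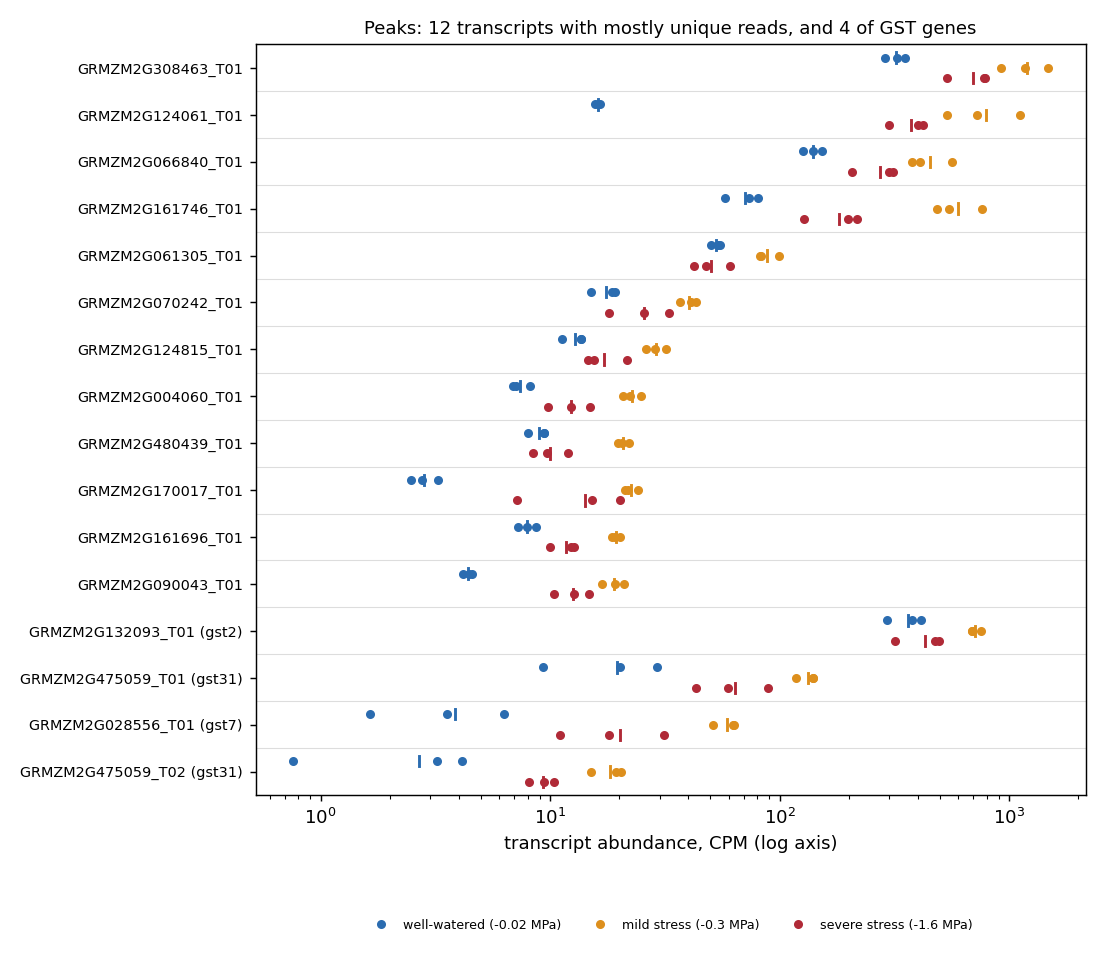
Abundance in CPM (log axis) of the 12 peaks of highest mean with at least 50% unique reads and of 4 peaks of GST genes. Points are single libraries and vertical bars the means of 3 replicates. In every row the mild stress points (orange) lie to the right of the 6 others, and in GRMZM2G124061_T01 the well-watered points lie between 15.7 and 16.5 CPM against 539 to 1118 CPM under mild stress.

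Peaks with unique reads also occurred at low abundance, in genes of which most had no name. GRMZM2G034421_T01 was measured at 0.0584, 0 and 0 CPM in the well-watered replicates, 5.83, 4.40 and 3.07 CPM under mild stress and 1.63, 1.15 and 1.95 CPM under severe stress. All well-watered values were below the level of 3 reads, so no fold over well-watered is given, and the mild stress mean was 2.81 times the severe stress mean. AC233863.1_FGT001 was measured at 1.08, 1.13 and 1.35 CPM in the well-watered replicates, 3.36, 3.35 and 2.78 CPM under mild stress and 1.77, 1.44 and 1.10 CPM under severe stress, and its severe stress replicates overlapped with the well-watered ones. al1 (GRMZM2G118759_T01) was measured at 6.27, 8.62 and 8.54 CPM in the well-watered replicates, 12.5, 12.1 and 13.9 CPM under mild stress and 3.27, 4.47 and 6.40 CPM under severe stress, the highest level again under mild stress but the lowest level at -1.6 MPa (log2 fold change -0.85 ± 0.22 (SE), FDR = 0.0181, with severe stress replicate 5 above well-watered replicate 1). GRMZM2G135960_T01, at 1.63, 1.41 and 2.22 CPM in the well-watered replicates, 5.02, 2.37 and 3.19 CPM under mild stress and 1.04, 1.13 and 0.508 CPM under severe stress, had the same order, with a log2 fold change of -1.06 ± 0.38 (SE), FDR = 0.063.

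GST transcripts made up 4 of the 13 peaks with a gene name. gst2 (GRMZM2G132093_T01, chr10:90214404-90215794, 3 exons) was the second most abundant peak, at 412, 295 and 377 CPM in the well-watered replicates, 758, 693 and 687 CPM under mild stress and 474, 317 and 494 CPM under severe stress. gst31 (GRMZM2G475059_T01) was measured at 29.2, 9.29 and 20.1 CPM in the well-watered replicates, 140.4, 139 and 117 CPM under mild stress and 59.6, 43.3 and 89.5 CPM under severe stress. gst7 (GRMZM2G028556_T01) was measured at 6.33, 1.64 and 3.55 CPM in the well-watered replicates, 62.8, 63.3 and 51.2 CPM under mild stress and 18.1, 11.1 and 31.4 CPM under severe stress. Mild stress was above the other treatments without overlap in each, and well-watered replicate 2 was the lowest library of all 3 transcripts. For gst31 and gst7 severe stress lay between the treatments without overlap. Severe stress exceeded well-watered by a log2 fold change of 1.62 ± 0.37 (SE), FDR = 0.00982 for gst31 and of 2.31 ± 0.47 (SE), FDR = 0.00517 for gst7, and was not called for gst2 (0.15 ± 0.17 (SE), FDR = 0.583). The second transcript of gst31 (GRMZM2G475059_T02) followed the first at 3.21, 0.761 and 4.12 CPM in the well-watered replicates, 20.3, 19.4 and 15.1 CPM under mild stress and 9.43, 10.5 and 8.07 CPM under severe stress. Between 5.39% and 8.66% of the reads of these transcripts were unique, so their levels depend on how shared reads were assigned. The rule's 1.5-fold limit was also passed in the unique reads, where the mild stress mean was 1.63, 1.87 and 2.87 times the nearer mean for gst2, gst31 T01 and gst7, and in the reads summed per gene, where it was 1.64, 2.05 and 2.73 times.

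These 4 transcripts were the only GST peaks. Of 40 GST transcripts averaging at least 1 CPM, 4 were peaks and 1 was a dip (0.286% and 0.804% of all transcripts were peaks and dips), and the mild stress mean was the highest of the 3 means in 10 and the lowest in 11, shares of 25.0% and 27.5% against 25.2% and 27.0% of all transcripts. Under severe stress 25 of the 40 were higher and 1 was lower than in well-watered roots (FDR below 0.05), against 16.4% and 13.1% of all transcripts tested. The dip, GRMZM2G146246_T01 of a gene listed as gst4 and gst3, was measured at 12.4, 13.3 and 12.2 CPM in the well-watered replicates, 7.49, 8.09 and 9.11 CPM under mild stress and 13.1, 14.3 and 14.7 CPM under severe stress, and the second transcript of the same gene was more abundant and did not dip, at 205, 258 and 235 CPM in the well-watered replicates, 241, 255 and 211 CPM under mild stress and 397, 585 and 518 CPM under severe stress.

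Apart from al1 and a pdc3 transcript described with its gene, the remaining named peaks came from genes with 2 to 8 annotated transcripts and had few unique reads. GRF14 (GRMZM2G098594_T02), a growth-regulating factor of the class of transcription factors that miR396 cleaves in plants, was measured at 3.06, 9.04 and 8.18 CPM in the well-watered replicates, 11.4, 13.1 and 11.2 CPM under mild stress and 7.67, 4.52 and 10.4 CPM under severe stress. The other named peaks were a γ-tubulin (tubg1, GRMZM2G073888_T01), an auxin-binding protein (abp4, GRMZM2G064371_T02), a GH3 protein, of a family that conjugates hormones to amino acids (GRMZM2G378106_T01), znod1 (GRMZM2G052562_T01), zfp30 (GRMZM2G116079_T05) and SC30 (GRMZM2G016296_T03), with mild stress means 1.52 to 1.91 times the nearer mean. When reads were summed per gene, the ratio was 1.13 for GRF14, 1.28 for GH3, 1.02 for tubg1, 1.02 for zfp30 and 1.02 for SC30. It was below 1 for znod1 (0.952) and abp4 (0.844). None of these genes met the rule as a sum.

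The most abundant dip, GRMZM2G088765_T01 (chr1:110499018-110501408, 4 exons, no name in the files), was measured at 361, 458 and 362 CPM in the well-watered replicates, 216, 234 and 228 CPM under mild stress and 463, 632 and 540.1 CPM under severe stress. All its reads were unique, and the 3 mild stress libraries were close to each other and far below the others. Its difference between severe stress and well-watered was small (0.36 ± 0.12 (SE), FDR = 0.0444) and was lost in 9 of 16 alternatives. GRMZM2G113409_T01 was measured at 191, 163 and 134 CPM in the well-watered replicates, 86.0, 84.7 and 92.7 CPM under mild stress and 154, 158 and 123 CPM under severe stress, and GRMZM2G391272_T01 at 90.5, 111 and 107 CPM in the well-watered replicates, 43.1, 48.1 and 40.7 CPM under mild stress and 113, 92.2 and 118 CPM under severe stress. In both, well-watered and severe stress overlapped (log2 fold change -0.27 ± 0.13 (SE), FDR = 0.167, and -0.04 ± 0.12 (SE), FDR = 0.853). GRMZM2G157057_T01 and GRMZM2G135108_T01 also overlapped between those treatments, with mild stress means 0.643 and 0.527 times the nearer mean. The opposite, a level above well-watered under severe stress, was found in GRMZM2G048175_T01 at 99.2, 135 and 111 CPM in the well-watered replicates, 65.9, 84.3 and 61.1 CPM under mild stress and 163, 214 and 198 CPM under severe stress, with a log2 fold change of 0.62 ± 0.15 (SE), FDR = 0.011.

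Excursions in both directions, down under mild stress and up under severe stress, were found in several dips, among them hsbp1, GRMZM2G304442_T01 and expB6. hsbp1 (GRMZM2G085924_T01) was measured at 14.3, 21.5 and 12.2 CPM in the well-watered replicates, 5.54, 9.67 and 9.57 CPM under mild stress and 63.4, 498 and 106 CPM under severe stress. GRMZM2G304442_T01 was measured at 33.8, 44.3 and 34.9 CPM in the well-watered replicates, 21.4, 18.7 and 25.0 CPM under mild stress and 65.0, 174 and 104 CPM under severe stress. Mild stress was the lowest and severe stress the highest treatment without overlap in both, and severe stress replicate 2 was the highest library, most of all for hsbp1. The log2 fold change of severe stress over well-watered was 3.67 ± 0.70 (SE), FDR = 0.00373 for hsbp1 and 1.49 ± 0.29 (SE), FDR = 0.00435 for GRMZM2G304442_T01. Without severe stress replicate 2 it was 2.30 and 1.06, and both stayed called in all 16 alternatives. The β-expansin expB6 (GRMZM2G176595_T01), of the proteins that loosen the walls of grasses, had the same form without that library effect, at 2.48, 3.14 and 1.96 CPM in the well-watered replicates, 1.14, 1.74 and 1.10 CPM under mild stress and 24.6, 24.3 and 21.97 CPM under severe stress, and rose under severe stress by 3.12 ± 0.21 (SE), FDR = 1.46e-05. GRMZM2G316778_T01 was measured at 88.0, 72.9 and 53.5 CPM in the well-watered replicates, 40.5, 26.6 and 35.7 CPM under mild stress and 70.9, 147 and 78.2 CPM under severe stress, and its severe stress replicates overlapped with the well-watered ones.

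**Figure D2:**
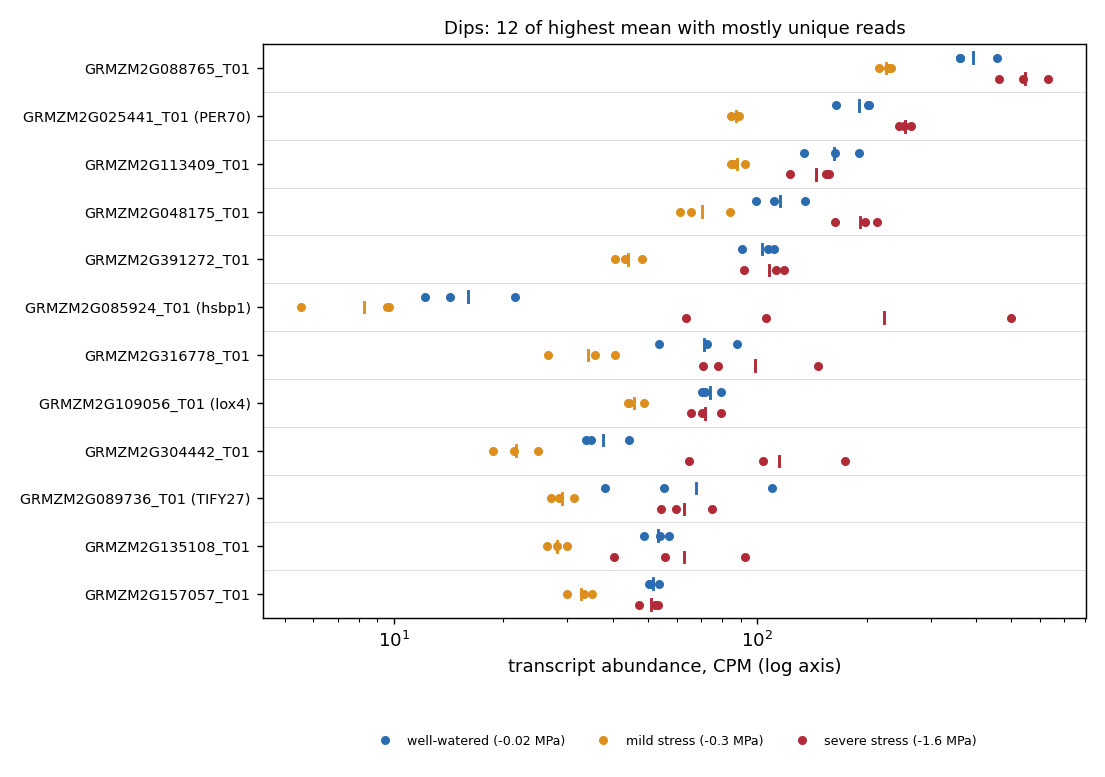
Abundance in CPM (log axis) of the 12 dips of highest mean with at least 50% unique reads. Points are single libraries and vertical bars the means of 3 replicates. The mild stress points (orange) lie to the left of the 6 others in every row, and the severe stress points of hsbp1 spread from 63.4 to 498 CPM.

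Dips held transcripts of lipoxygenases, of an allene oxide synthase and of TIFY proteins, and no allene oxide cyclase or OPR (12-oxo-phytodienoic acid reductase) transcript was a member. The genes were grouped by symbol, and which of the lipoxygenases serve jasmonate synthesis was not examined. lox4 (GRMZM2G109056_T01, chr1:264275083-264291510, 10 exons, all reads unique) was measured at 70.6, 79.4 and 71.9 CPM in the well-watered replicates, 44.5, 48.8 and 44.0 CPM under mild stress and 65.7, 79.3 and 70.6 CPM under severe stress. TIFY27 (GRMZM2G089736_T01) was measured at 109.8, 55.2 and 38.0 CPM in the well-watered replicates, 27.0, 28.5 and 31.2 CPM under mild stress and 59.8, 75.0 and 54.2 CPM under severe stress. TIFY4 (GRMZM2G445634_T01) was measured at 37.5, 18.3 and 14.6 CPM in the well-watered replicates, 10.2, 7.40 and 13.3 CPM under mild stress and 28.9, 34.7 and 20.8 CPM under severe stress. For these 3, the well-watered and severe stress replicates overlapped and the mild stress replicates lay below both, and well-watered replicate 1 was the highest library of TIFY27 and TIFY4. TIFY17 (GRMZM2G151519_T01) was alike, at 35.2, 23.8 and 24.2 CPM in the well-watered replicates, 19.03, 18.2 and 16.9 CPM under mild stress and 26.5, 33.7 and 24.9 CPM under severe stress, with 21.7% unique reads. None of the 4 was called between severe stress and well-watered (log2 fold changes -0.15, -0.21, 0.16 and -0.07 in the order given).

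aos2 and lox6 have few or no unique reads, and are therefore given as sums over their transcripts. The allene oxide synthase gene aos2 (GRMZM2G002178) has 2 transcripts, which both dipped, and its sum was 7.41, 9.82 and 7.92 CPM in the well-watered replicates, 2.13, 3.265 and 3.02 CPM under mild stress and 5.05, 12.1 and 6.60 CPM under severe stress. lox6 (GRMZM2G040095) has 4 transcripts, of which T02 was among the 300 dips, and its sum was 5.17, 4.52 and 4.68 CPM in the well-watered replicates, 1.80, 2.07 and 2.22 CPM under mild stress and 12.05, 30.6 and 13.4 CPM under severe stress. Mild stress was the lowest treatment without overlap in both sums. For lox6 severe stress was also the highest (log2 fold change 2.23 ± 0.37 (SE), FDR = 0.0018 for T02, not called in unique reads), and severe stress replicate 2 was the highest library of both genes.

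Across the wider list of these genes, chosen by symbol with the results known, 30 of 48 transcripts averaging at least 1 CPM (62.5%) had their lowest mean under mild stress, against 27.0% of all transcripts, and 2 had their highest. These were 12 of 15 lipoxygenase transcripts, 11 of 18 TIFY transcripts and 7 of 15 transcripts of allene oxide synthases, allene oxide cyclases and OPRs. The last group did not move one way: the 2 aos2 transcripts were called lower under mild stress than in well-watered roots and 4 others were called higher (over all transcripts tested, 1.06% were called lower and 1.38% higher). The 4 were the OPR genes opr1, opr2, opr3 and opr5, which had means of 0.639 and 8.54 CPM (opr1), 0.557 and 3.09 CPM (opr2), 11.7 and 33.3 CPM (opr3), and 2.00 and 6.20 CPM (opr5) in well-watered and mildly stressed roots. Their identity was looked up after the count had been seen. Of the 30, 8 were dips, for which the rule itself requires the lowest mean under mild stress. These dips include lox6 T03, which met the rule below the abundance limit of the members. The share of 62.5% is therefore not read as a trend of these families. The transcripts of a gene share reads and the list was not chosen independently, so the shares are a description.

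**Figure D3:**
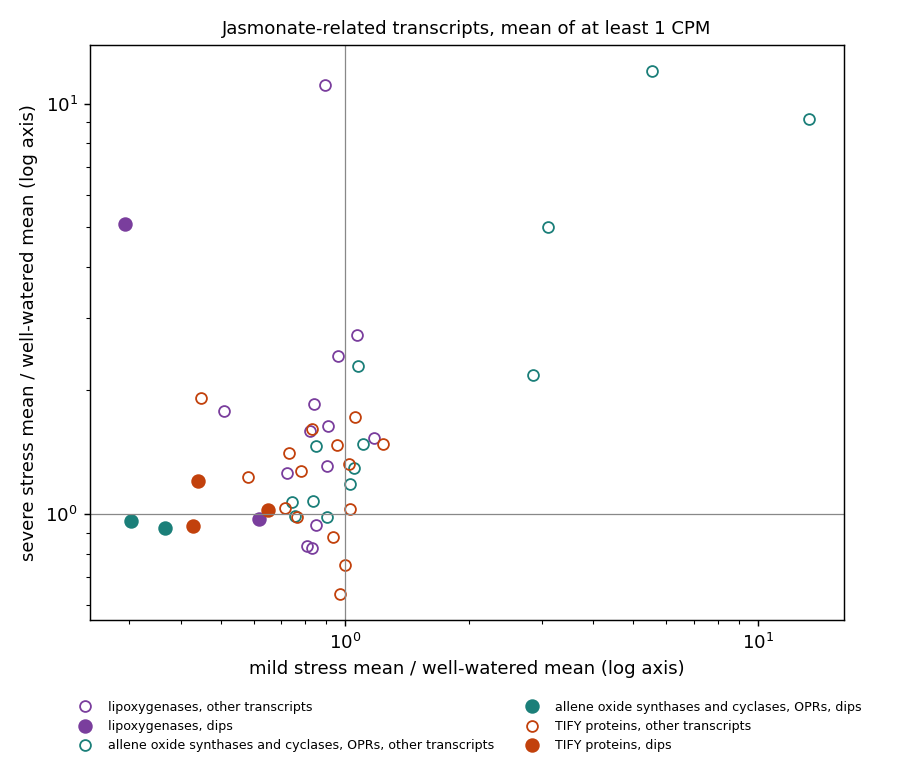
Ratio of the mild stress mean (x axis) and of the severe stress mean (y axis) to the well-watered mean, both on log axes, for the 48 transcripts of lipoxygenases, allene oxide synthases and cyclases, OPRs and TIFY proteins averaging at least 1 CPM. Filled points are the 7 dips among the 300 members, which all lie left of 0.67 on the x axis, and lox6 T02 is the uppermost of the 7, with a severe stress mean 5.08 times the well-watered mean.

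Class III peroxidases, which act on phenolics and reactive oxygen in the cell wall, gave 2 dips with all reads unique. PER70 (GRMZM2G025441_T01, chr7:172793880-172796124, 3 exons) was measured at 201, 204 and 165 CPM in the well-watered replicates, 88.1, 89.3 and 84.8 CPM under mild stress and 253, 265 and 245 CPM under severe stress. Mild stress replicates lay close to each other and far below the rest, and severe stress lay above well-watered without overlap (log2 fold change 0.32 ± 0.08 (SE), FDR = 0.0188, lost with the replicate number as a block). PER2 (GRMZM2G040638_T01) was measured at 1.255, 3.67 and 2.89 CPM in the well-watered replicates, 0.593, 0.929 and 0.560 CPM under mild stress and 1.67, 3.47 and 2.59 CPM under severe stress, a dip at 0.269 times the nearer mean, with overlap between well-watered and severe stress. The 5 genes with such peroxidase symbols had 8 transcripts, and the mild stress mean was the lowest in 5 of them. This was 62.5%, against 27.0% of all transcripts averaging at least 1 CPM. Besides the 2 dips, these were transcripts T01, T03 and T04 of a single gene, PER42, with 0% unique reads. The mild stress mean was not the lowest in PER42 T02, PER1 or PER66, so the count is not read as a trend of the family.

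Dips in named genes of metabolic enzymes included pck2. This phosphoenolpyruvate carboxykinase gene (GRMZM5G870932_T01, 11 exons, all reads unique) was measured at 25.6, 41.8 and 38.4 CPM in the well-watered replicates, 5.34, 5.90 and 5.28 CPM under mild stress and 7.21, 16.7 and 9.79 CPM under severe stress, so that both deficits lay below well-watered roots without overlap and mild stress was the lowest. Severe stress was lower than well-watered by a log2 fold change of -1.76 ± 0.28 (SE), FDR = 0.00135. Nitrate reductase (GRMZM5G878558_T01), the first enzyme of nitrate assimilation, was measured at 1.69, 1.87 and 2.89 CPM in the well-watered replicates, 1.24, 0.929 and 0.658 CPM under mild stress and 2.06, 3.82 and 4.15 CPM under severe stress. The mild stress replicates were the lowest, and well-watered and severe stress overlapped (log2 fold change 0.52 ± 0.33 (SE), FDR = 0.287). The ethylene-forming ACC oxidase ACO31 (GRMZM2G072529_T01) was measured at 1.93, 2.54 and 2.25 CPM in the well-watered replicates, 0.643, 1.77 and 1.29 CPM under mild stress and 2.50, 3.65 and 2.74 CPM under severe stress, with mild stress replicate 3 close to the well-watered replicates. Glutamine synthetase gln1 (GRMZM2G098290_T01), the β-glucosidase glu1 (GRMZM2G016890_T02), the phosphoenolpyruvate carboxylase kinase PPCK1 (GRMZM2G178074_T02) and 2 glyceraldehyde phosphate dehydrogenase genes (GAPC1, GRMZM2G046804_T05, and the non-phosphorylating gpn1, GRMZM2G035268_T01) had dips in transcripts with at most 4.66% unique reads. As sums over the gene, their mild stress means were 0.776 (gln1), 0.917 (glu1), 1.07 (PPCK1), 1.01 (GAPC1) and 0.823 (gpn1) times the nearer mean, and none met the rule.

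Several named regulators and other named genes were among the dips. The MYB factor myb42 (GRMZM2G419239_T01), of a subfamily known for repressing lignin genes, was measured at 2.07, 1.34 and 0.993 CPM in the well-watered replicates, 0.667, 0.749 and 0.828 CPM under mild stress and 1.92, 3.33 and 2.51 CPM under severe stress. The cell number regulator CNR09 (GRMZM2G023081_T01) was measured at 1.98, 2.19 and 1.75 CPM in the well-watered replicates, 0.519, 0.749 and 0.536 CPM under mild stress and 1.63, 2.98 and 1.41 CPM under severe stress. LOB15 (GRMZM2G060544_T01), a LOB-domain factor, was measured at 20.6, 16.9 and 21.8 CPM in the well-watered replicates, 10.6, 11.4 and 14.1 CPM under mild stress and 18.9, 27.5 and 24.9 CPM under severe stress. All reads of these 3 were unique, mild stress was the lowest treatment and the other treatments overlapped. MYBR21 (GRMZM2G079458_T04), the heat shock factor HSF29 (GRMZM2G179802_T01), the katanin ktn2 (GRMZM2G054715_T07), the brassinosteroid synthesis gene na1 (GRMZM2G449033_T03), rf2 (GRMZM2G058675_T01), PDK1 (GRMZM2G107196_T01), PAPc (GRMZM2G014193_T02), the elongation factor gene elfa7 (GRMZM2G110509_T03), pglcat4 (GRMZM2G012874_T02) and the U1 snRNP 70K gene (GRMZM2G113592_T01) dipped in transcripts with at most 14.4% unique reads, at 0.407 to 0.654 times the nearer mean. As sums over the gene none of these 10 met the rule, and the ratio rose above 1 in ktn2, na1, rf2, PAPc, elfa7, pglcat4 and the U1 snRNP 70K gene.

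The study listed 223 miRNA target transcripts predicted from degradome sequencing, of which 163 had a mean of at least 1 CPM. Among all transcripts of that abundance, 0.286% met the rule as peaks and 0.804% as dips, so nothing is read from the number of members listed. A single member was on the list. This was PP2C16 (GRMZM2G082487_T01, chr2:176186305-176187719, a single exon, all reads unique), a protein phosphatase 2C of the class in which negative regulators of abscisic acid signalling are found, listed as a target of miR169i,j,k-3p. It was measured at 2.66, 2.40 and 2.93 CPM in the well-watered replicates, 1.31, 1.89 and 1.75 CPM under mild stress and 5.78, 11.4 and 6.68 CPM under severe stress, lowest under mild stress and highest under severe stress without overlap (log2 fold change of severe stress over well-watered 1.47 ± 0.25 (SE), FDR = 0.0022). GRF14 was on the list through its transcript T06, a target of miR396c,d, whereas its transcript T02 was the peak, and T06 was measured at 7.996, 3.27 and 3.85 CPM in the well-watered replicates, 4.15, 4.13 and 3.17 CPM under mild stress and 4.92, 2.01 and 1.69 CPM under severe stress, with overlap between all treatments. Both miRNAs are shown, miR169i,j,k-3p because its listed target was a member and miR396c,d because its listed target was another transcript of the gene of a member, 5′ to 3′, with bases 2 to 8 (the seed) in capitals. The levels of the miRNAs themselves were not analysed here.
miR169i,j,k-3p: gGCAGUCUccuuggcuag
miR396c,d: uUCCACAGgcuuucuugaacug

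Several of the largest dips with mostly unique reads were in genes without a name. GRMZM2G147399_T01 (chr9:20677133-20678372) was measured at 4.73, 2.40 and 2.98 CPM in the well-watered replicates, 0.346, 0.150 and 0.584 CPM under mild stress and 2.42, 6.32 and 11.5 CPM under severe stress, the lowest ratio of all members (0.107). GRMZM2G320298_T01 was measured at 6.92, 10.5 and 9.93 CPM in the well-watered replicates, 2.67, 2.07 and 2.44 CPM under mild stress and 5.32, 13.6 and 6.46 CPM under severe stress, and GRMZM5G889052_T01 at 8.70, 11.3 and 9.89 CPM in the well-watered replicates, 2.18, 2.07 and 2.19 CPM under mild stress and 6.53, 7.96 and 6.85 CPM under severe stress. Mild stress replicates were tightly grouped in the last of these, which was also lower in severely stressed than in well-watered roots (log2 fold change -0.59 ± 0.13 (SE), FDR = 0.00875, lost with the replicate block). GRMZM2G043027_T01 had a well-watered replicate 1 of 12.2 CPM against 2.49 and 1.51 CPM in replicates 2 and 3, and mild stress values of 1.29, 0.899 and 1.07 CPM, and its severe stress values overlapped with the well-watered ones. GRMZM2G106511_T01 and AC149829.2_FGT002 were near the floor under mild stress, at 0.396, 0.210 and 0.341 CPM and 0.148, 0.150 and 0.560 CPM, and their severe stress level above well-watered (log2 fold changes 1.58 ± 0.48 (SE), FDR = 0.0333, and 1.84 ± 0.47 (SE), FDR = 0.016) was lost in 6 and 4 of 16 alternatives.

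For genes with several annotated transcripts, membership of a transcript often did not extend to its gene. Of the 81 peaks, 59 came from such genes, and the gene met the rule in 7 of these when its reads were summed. Of the 219 dips, 129 came from such genes, and the gene met the rule in 41. The median ratio of the mild stress mean to the nearer mean changed from 1.75 to 1.02 in the 59 peaks and from 0.593 to 0.807 in the 129 dips. The sum lay on the other side of 1 for 24 peaks and 29 dips. Each peak held a median of 13.9% of the reads of its gene and each dip 35.7%. The reads of the other transcripts of the gene were lower under mild stress than in well-watered roots for 37 of 58 peaks and higher for 21. For the dips they were higher for 59 of 124 and lower for 65. No such share was computed for other genes with several transcripts, so nothing is read from these counts. Whether transcripts of a gene were exchanged under mild stress or shared reads were assigned differently was not tested. Over all genes averaging at least 1 CPM, 0.146% (32 of 21973) were peaks and 0.742% (163) were dips as sums.

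**Figure D4:**
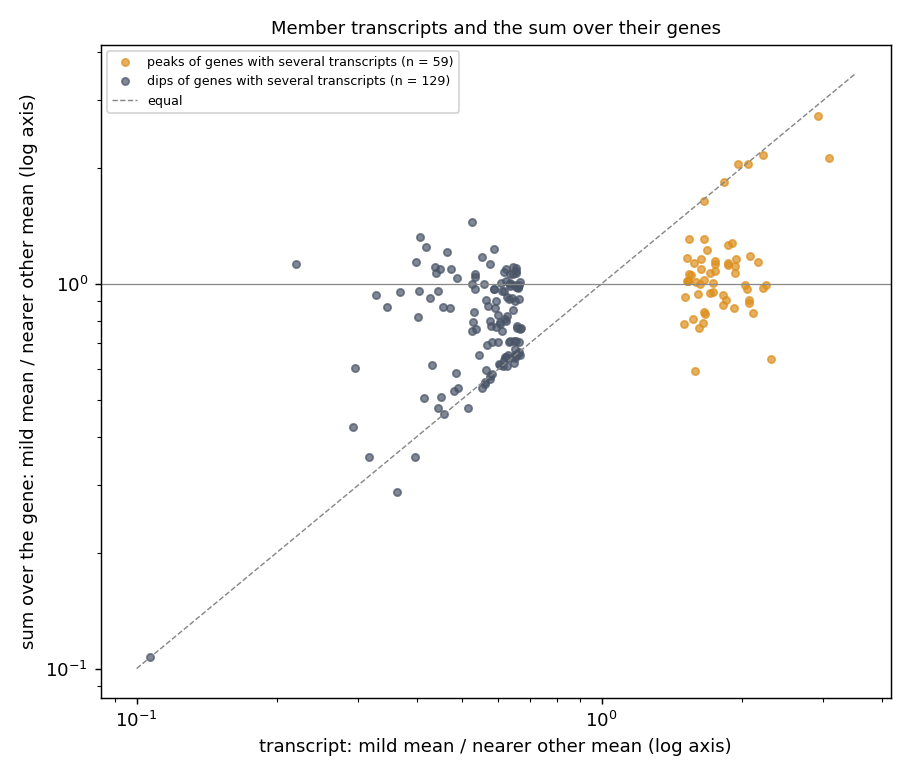
Ratio of the mild stress mean to the nearer of the other 2 means for each member of a gene with several transcripts (x axis) and for the reads summed over that gene (y axis), both on log axes, with peaks in orange (n = 59) and dips in dark blue-gray (n = 129). Points on the dashed line have equal ratios. Most peaks lie near 1 on the y axis (median 1.02), and the dips spread from the dashed line to values above 1 (median 0.807).

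The pyruvate decarboxylase gene pdc3 (GRMZM2G087186) was the gene with both a peak and a dip. Transcript T01 was measured at 26.9, 55.5 and 44.2 CPM in the well-watered replicates, 67.1, 85.2 and 76.8 CPM under mild stress and 51.6, 42.9 and 46.7 CPM under severe stress, and T04 at 334, 292 and 263 CPM in the well-watered replicates, 179, 80.2 and 67.6 CPM under mild stress and 276, 471 and 435 CPM under severe stress. T01 was highest and T04 lowest under mild stress, and the values of T04 spread more among the mild stress replicates, with replicate 1 above replicates 3 and 4. The other transcripts had higher means under mild stress as well, 104 against 55.4 CPM in well-watered roots for T02 and 139 against 56.6 CPM for T03. Summed over the 4 transcripts, the gene was at 428, 457 and 467 CPM in the well-watered replicates, 435, 422 and 430.4 CPM under mild stress and 523, 590.3 and 567 CPM under severe stress. The sum of the mild stress libraries overlapped with that of well-watered roots, and severe stress was the highest. At most 0.0559% of the reads of T01 and T04 were unique, so their division among the transcripts rests on shared reads.

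**Figure D5:**
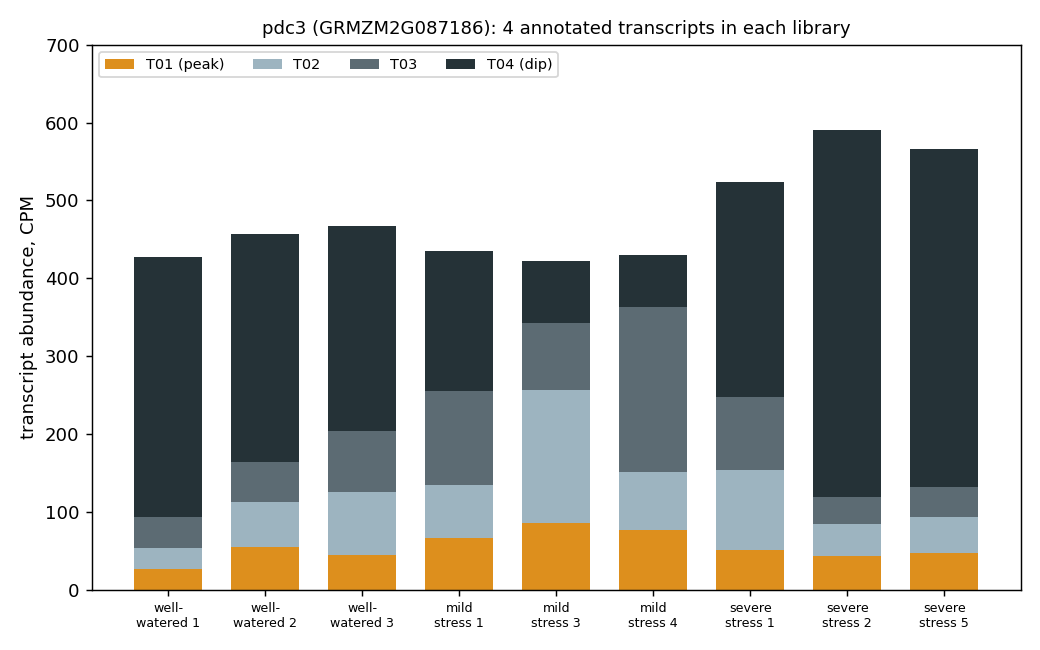
Abundance in CPM of the 4 annotated transcripts of pdc3, stacked for each of the 9 libraries. The T04 segment (black) shrinks to 179, 80.2 and 67.6 CPM in mild stress replicates 1, 3 and 4, while the height of the whole bar stays between 422 and 467 CPM in the well-watered and mild stress libraries.

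The alcohol dehydrogenase gene adh1 (GRMZM2G442658) differed from pdc3 in that its sum dipped. Its transcript T08 was measured at 55.9, 49.1 and 45.3 CPM in the well-watered replicates, 28.9, 33.2 and 31.5 CPM under mild stress and 47.5, 77.9 and 72.1 CPM under severe stress. The sum over its 8 transcripts was 298, 279.9 and 285 CPM in the well-watered replicates, 184, 172 and 201 CPM under mild stress and 369, 475 and 469.9 CPM under severe stress. Both measures were lowest under mild stress without overlap, and severe stress was the highest treatment of the sum. At most 1.16% of the reads of any of the 8 transcripts were unique, so both measures rest on shared reads.

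The structure of the transcripts, which the rule did not use, is given as a description with no test. Transcripts of a single exon were 27.9% of the dips (61 of 219) and 8.64% of the peaks (7 of 81), against 13.2% of all transcripts averaging at least 1 CPM. The median number of exons was 3 in dips, 4 in peaks and 5 in all, while the median length was 1636 bases in both sets and 1681 bases in all. At least 50% of reads were unique in 46.1% of dips and 28.4% of peaks, against 39.8% of all. Members lay on all 10 chromosomes, with 5 to 11 genes of peaks and 11 to 41 genes of dips on each. Some dips lay within 100 kb of each other. Other genes between them, and reads shared among them, were not examined. GRMZM2G304442 (chr1:74719065-74719941), GRMZM2G005630 (chr1:74737125-74740997) and GRMZM2G031139 (chr1:74746727-74750599) lay within 100 kb on chromosome 1 in B73 RefGen_v3. So did GRMZM2G407146 (chr2:6918107-6918593), GRMZM2G106511 (chr2:6973267-6974241) and GRMZM2G106393 (chr2:6982789-6983559) on chromosome 2. The largest dip, GRMZM2G147399, was 26839 bases from GRMZM2G131421, also a dip (chr9:20705211-20706472). In all, 9 pairs of neighbouring member genes lay within 100 kb, of which 7 were pairs of dips and 2 a peak and a dip. No share of pairs in other gene sets was computed.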

How the data were processed

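RNA-seq libraries of 9 root tip samples (3 treatments, 3 replicates each, grouped by the labels) were used. The authors deposited, for each library, counts of total and unique reads per annotated transcript of B73 RefGen_v3 (63074 transcripts), made with CLC Genomics Workbench, beside RPKM and TPM values, and a table of CPM for 46599 transcripts. The deposited RPKM and TPM values were not used in a comparison. The deposited CPM equalled total reads over all listed reads, scaled to CPM, to within 5.0e-07, with no TMM factors. The deposited transcript length and exon number were used as annotation (other values). Tests were run on total read counts with edgeR 4.0.16 in R 4.3.3 (quasi-likelihood F-test, TMM factors, all 9 libraries, Benjamini-Hochberg adjustment over 46599 transcripts, FDR below 0.05 called), and were tested on simulated data. DESeq2 1.42.0 was an alternative, and tables were made with Python 3.11.15, pandas 2.3.3 and numpy 2.4.6. Other alternatives were unique reads, reads summed per gene, other fold and abundance limits, library sizes without TMM, other filters, the replicate number as a block, a fit of 2 treatments, and each library left out. A shared read has no certain transcript, so transcripts of a gene and similar genes are uncertain where unique reads are few. Labels do not say whether replicates were separate experiments beyond being separate samples, so p-values measure the spread between these samples. The members and the gene lists were chosen with earlier results of these data known. Named were, among peaks and dips apart, the 12 members of highest mean and the 8 of largest ratio with at least 50% unique reads, the 4 of highest mean with fewer, those at the fold limit, those on the miRNA target list and those with a gene symbol. Lists by product description could not be applied because the reference table used here holds symbols only, so families were formed from symbols after values had been seen, and carry no test. Sequences of members were not used here. Coordinates are 1-based as in the deposited files.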

Additional observations from a re-analysis of the deposited data

How the results depend on the processing

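The number of members depended on the rule's limits. The 95 peaks became 24 at a fold limit of 2 and 269 at the looser limit (0.8 for dips), 38 at a mean of at least 5 CPM, 224 with no minimum, 47 in unique reads and 32 in reads summed per gene. The 267 dips became 75, 565, 111, 491, 200 and 163 in the same order. With each library left out in turn, the counts ranged over 105 to 223 peaks and 250 to 467 dips, and the counts above 150 peaks and 400 dips were those without a mild stress library, where the rule asks fewer libraries to stand apart. Calls between severe stress and well-watered ranged over 10675 to 13528 transcripts, 13 to 19 peaks and 31 to 50 dips. Calls in both mild stress contrasts, an alternative count chosen after seeing the data, ranged over 12 to 25 peaks and 28 to 76 dips, and were 40 and 131 with DESeq2. Replicate numbers of the labels did not pair the samples: deviations of same-numbered libraries correlated at -0.0111 to 0.0347 over 5 pairs and those of the others at -0.0644 to 0.0423 over 22. With the number as a replicate block, 7453 transcripts, 13 peaks and 24 dips were called between severe stress and well-watered, and 5 peaks and 4 dips in both mild stress contrasts. Because numbers 4 and 5 occur in a single library each, the block fit compares the treatments on fewer libraries. Its lower counts are therefore not read as an effect of the replicate number. Of 87 named members, 29 were called between severe stress and well-watered, 16 of them in all 16 alternatives, and 12 of the 58 not called were called in at least 1. The ratio of the mild stress mean to the nearer mean crossed 1 for 14 named members in reads summed per gene, at 0.939 (GRMZM2G354604_T04), 0.766 (GRMZM2G087186_T01), 0.952 (GRMZM2G052562_T01), 1.06 (GRMZM2G012874_T02), 1.06 (GRMZM2G113592_T01), 1.01 (GRMZM2G046804_T05), 0.844 (GRMZM2G064371_T02), 1.06 (GRMZM2G058675_T01), 1.32 (GRMZM2G110509_T03), 1.09 (GRMZM2G054715_T07), 0.784 (GRMZM2G180971_T01), 1.21 (GRMZM2G014193_T02), 1.11 (GRMZM2G449033_T03), 1.07 (GRMZM2G178074_T02). The cause was not tested. Depth limits the transcripts near 3 reads in a library.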

Other observations

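Below the abundance limit of the 300 members, 14 peaks and 48 dips with means of 1.00 to 1.42 CPM met the same rule. CKX4b, of the cytokinin oxidases that degrade cytokinins, was a peak with 0.788, 0.507 and 0.993 CPM in the well-watered replicates, 1.43, 2.04 and 2.78 CPM under mild stress and 0.865, 0.663 and 1.16 CPM under severe stress. All its reads were unique, and the 3 mild stress replicates lay above the rest, with mild stress replicate 1 the lowest of the 3. The other named peaks there were transcripts of bZIP72, et1, RELK3 and PDK1, and the named dips were transcripts of Myb56, SGR1, ARF30, gol1 and lox6. PDK1, a pyruvate dehydrogenase kinase gene, thus had a peak in T02 and, among the 300 members, a dip in T01. T02 was measured at 1.02, 1.18 and 0.757 CPM in the well-watered replicates, 2.03, 1.47 and 3.12 CPM under mild stress and 0.769, 0.683 and 1.21 CPM under severe stress, and T01 at 4.35, 3.34 and 3.38 CPM in the well-watered replicates, 1.61, 2.10 and 2.09 CPM under mild stress and 2.69, 4.97 and 3.22 CPM under severe stress. As a sum over the gene, the mild stress mean was 0.971 times the nearer mean.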
